A study of Mus musculus with 2 samples.

Results

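In the epidermis of the mouse, keratinocytes leave the basal layer, switch from Krt5 and Krt14 to Krt1 and Krt10 in the spinous layer, and fill with keratohyalin granules in the granular layer before they die and cornify. Filaggrin, encoded by Flg, is made there as the giant precursor profilaggrin. Proteases cut it into monomers that bundle keratin, and these are later broken down to the free amino acids that hold water in the cornified layer. The cells described here are wound keratinocytes with high Krt1 and Krt10 RNA that also held high Flg RNA, 55 cells among 746 wounded cells with high Krt1 and Krt10, 4897 wounded cells and 5666 cells in all. Levels are in CPM, the unique molecular identifiers (UMIs) of a gene scaled to a total of 1000000 gene UMIs of the cell, or of the cells summed. Members were selected on a level of Krt1 plus Krt10 of at least 5000 CPM and a level of Flg of at least 100 CPM in the cell. The other 691 Krt1 plus Krt10 high cells, with Flg under 100 CPM, are called Flg-low. Flg, Krt1 and Krt10 chose the cells, so their values are given as a description and were not tested.

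The cells came from C57B6/J mice of both sexes, pooled, that all carried Sox9-CreER and R26-LSL-YFP, so that YFP marked the descendants of Sox9-expressing hair follicle cells. Phgdh, the first enzyme of serine synthesis, was floxed (fl/fl, deleted by the same Cre) or intact (+/+), and skin was taken unwounded or at 3 and 5 days post wounding (dpw). Each of the 6 conditions was marked by its own hashtag antibody, and all were loaded in a single 10x 3′ capture, so a condition is 1 pool of an unstated number of animals with no replicate. Wounded cells had been sorted as live, YFP positive, high in integrin-α6 and negative for CD140a, CD117, CD31 and CD45, while the sort of unwounded cells also required CD34 and CD200 and excluded SCA1. The gate thus asked for a basal surface protein in cells that are here described as suprabasal by their RNA. Values for the pools are always given in the order 3 dpw fl/fl, 3 dpw +/+, 5 dpw fl/fl and 5 dpw +/+ unless stated.

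Flg-high cells numbered 4, 19, 15 and 17 in these 4 pools, beside 31, 105, 276 and 279 Flg-low cells. They had a median of 52260 gene UMIs, against 44482 in Flg-low cells, and a median mitochondrial share of 3.69%, against 3.91%. The wounded pools held 517, 1381, 1498 and 1501 cells with pool medians between 38217 and 46654 UMIs. The unwounded pools held 534 fl/fl and 235 +/+ cells, with pool medians between 7455 and 7606.5 UMIs. Phgdh itself, counted from 3′ reads that can also come from a shortened transcript, stood at 17.3, 115, 21.4 and 136 CPM over all cells of the 4 wounded pools, and at 19.4 CPM in unwounded fl/fl and 59.9 CPM in unwounded +/+ cells. Both fl/fl wounded pools were therefore below both +/+ wounded pools, as their labels have it, and the remaining Phgdh RNA was in 18.8% and 26.8% of the fl/fl cells at 3 and 5 dpw.

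**Figure D1:**
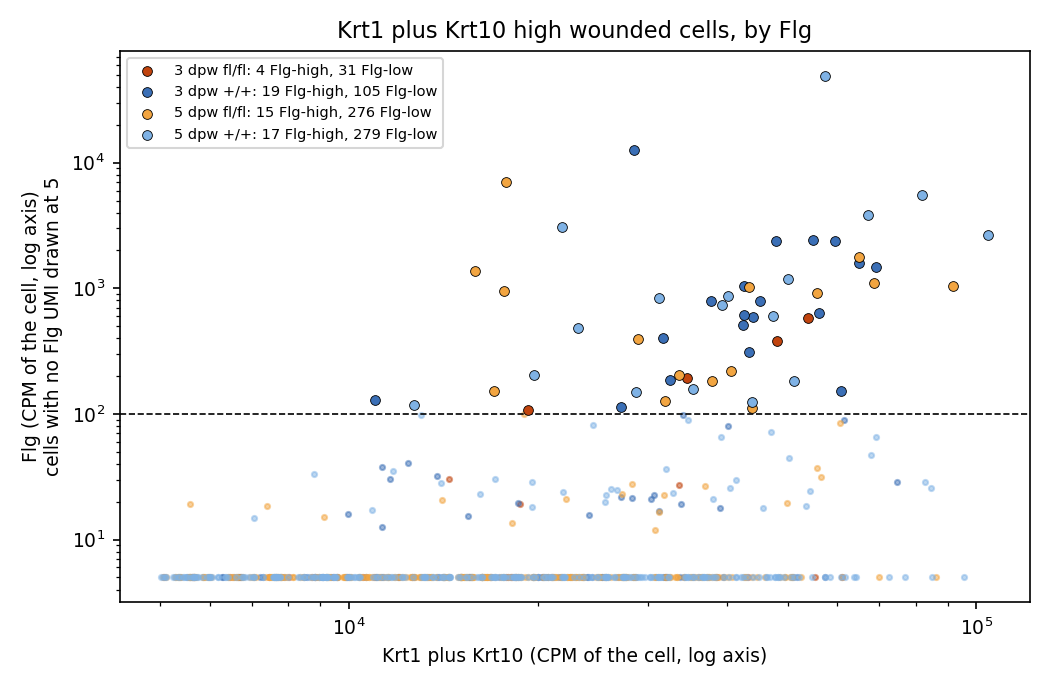
Each point is 1 of the 746 wounded cells with high Krt1 and Krt10. The horizontal axis gives Krt1 plus Krt10 and the vertical axis Flg, both in CPM of the cell on log axes, colour gives the hashtag pool, and the dashed line is the 100 CPM limit that separates the 55 Flg-high cells above it from the Flg-low cells below, of which 619 had no Flg UMI and are drawn at 5.

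Within the Flg-high cells Flg spread over more than 2 orders of magnitude, between 107 and 49152 CPM with a median of 613 CPM. Summed over each pool Flg was at 326, 1507, 991 and 3431 CPM in Flg-high cells, against 3.85, 6.54, 2.16 and 4.25 CPM in Flg-low cells. The 55 cells held 5376 Flg UMIs, 93.7% of all Flg UMIs of the wounded cells, and 61.6% of these were in 5 cells. A single 5 dpw +/+ cell had 1898 of the 2833 Flg UMIs of its pool. At the limit itself, the lowest Flg-high cell had 107 CPM from 7 UMIs and the highest Flg-low cell 99.3 CPM from 10 UMIs, with 8 cells between 80 and 100 CPM and 4 between 100 and 120 CPM. Krt1 plus Krt10, the other choosing measure, had a median of 42623 CPM in Flg-high cells and 16289 CPM in Flg-low cells. The 2 classes therefore also differ in how far above the keratin limit they lie. Barcodes with 100 to 400 UMIs, which hold mostly free RNA, had Flg at 40.9 CPM at a mean of 255.9 UMIs.

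Flg lies on chromosome 3 at 93273546-93293689 (mm10, GRCm38.p6), in the epidermal differentiation complex, with Ivl (involucrin) and Lor (loricrin), 2 proteins of the cornified envelope. The bases just before these 3 genes are shown because the letters TGANTCA, with any base at N, occur in each of them, where they are in capitals. This is a loose form of TGA(C/G)TCA, the pattern read by AP-1 factors. Ivl and Lor match that stricter pattern, while Flg has A at the middle base and matches the loose form alone. All counts below are of the loose form. The sequences are RefSeq's on GRCm38.p6 and run 5′ to 3′ along the strand of the gene, 150 bases each.
Flg, chr3:93273396-93273545, plus strand: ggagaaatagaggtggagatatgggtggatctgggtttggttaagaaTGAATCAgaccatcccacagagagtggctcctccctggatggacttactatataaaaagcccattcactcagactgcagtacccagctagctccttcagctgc
Ivl, chr3:92573791-92573940, minus strand: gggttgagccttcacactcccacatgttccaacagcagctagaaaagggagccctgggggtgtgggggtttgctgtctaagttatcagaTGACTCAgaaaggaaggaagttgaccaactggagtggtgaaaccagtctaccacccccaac
Lor, chr3:92083143-92083292, minus strand: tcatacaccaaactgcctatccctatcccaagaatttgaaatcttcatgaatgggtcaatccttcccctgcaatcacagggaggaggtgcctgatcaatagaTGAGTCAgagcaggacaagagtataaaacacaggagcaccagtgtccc
Counted back from the first base of the annotated gene, the pattern began 103 bases before Flg, 61 before Ivl and 48 before Lor. For Ivl the start that RefSeq's 300-base window uses lies further into the gene, and the pattern began 116 bases before it. The pattern reads the same on both strands. Over windows of 300 bases, 250 before and 50 after a start, 7.81% of 32851 RefSeq windows held it, as did 4.83% of the 7643 windows of genes tested below, 9.72% of 504 windows of genes higher in Flg-high cells and 6.87% of 262 windows of genes lower in them. Among the 12 most raised genes named below, 1 of 12 windows held it. A match describes letters and is no evidence that a factor binds there.

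Markers of the granular layer were only partly present, which limits the name that the cells can carry. Casp14, the protease of cornification, had UMIs in all 55 Flg-high cells, and Ivl in 52.7% of them, against 67.9% and 14.3% of Flg-low cells. Lor, the main protein of the cornified envelope, had UMIs in 8 of 55 cells, and 2 cells held 91.6% of them. Hrnr, for the filaggrin relative hornerin, had UMIs in 20 cells, with 76.8% in 2 cells. Krt2 and Flg2, markers of the upper spinous and granular layers, had no UMI in any Flg-high cell. Of 6 chosen differentiation genes (Hrnr, Casp14, Asprv1, Krt77, Ivl and Lor), at least 3 had a UMI in 43 Flg-high cells (78.2%), against 137 Flg-low cells (19.8%). Casp14 and Asprv1 make up much of this count, with UMIs in 100% and 98.2% of Flg-high cells, against 67.9% and 65.7% of Flg-low cells. Krt77 is listed below with spinous genes. Flg2 and Krt2, with no UMI, and Tgm3, which did not pass the test below, are not among the 6. The set was chosen with earlier results of these data known, so the shares only describe these 6 genes. Markers of immune cells, fibroblasts and melanocytes were at or near 0. The summed level of 14 immune markers was 5.09 to 6.53 CPM in the Flg-high sums, against 3.31 to 8.08 CPM in the Flg-low sums, with 9 of the 14 at 0 in Flg-high cells. Fibroblast markers reached at most 0.933 CPM (6 of 7 at 0) and melanocyte markers were all at 0. Other epithelial lists were not. Sebocyte markers summed to 71.3 to 149 CPM in the Flg-high sums, against 161 to 279 CPM in the Flg-low sums (2 of 7 at 0), and inner root sheath and hair shaft markers to 73.9 to 144 CPM, against 101 to 166 CPM (8 of 10 at 0). The part of such cells in the results was not tested. The cells are called Flg-high below, since Flg2, Krt2 and Lor do not bear out a late granular state.

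As a share of Krt1 plus Krt10 high cells, Flg-high cells made up 11.4% (3.20 to 26.7), 15.3% (9.48 to 22.9), 5.15% (2.91 to 8.36) and 5.74% (3.38 to 9.04) in the 4 pools, with exact Clopper-Pearson 95% intervals that cover counting error only. In +/+ skin the interval at 5 dpw lay below that at 3 dpw, while the 2 fl/fl intervals overlapped. At a given day the fl/fl and +/+ intervals overlapped too. The Krt1 plus Krt10 high cells themselves were 6.77%, 8.98%, 19.4% and 19.7% of all cells. Of all cells, Flg-high cells were 0.774%, 1.38%, 1.0% and 1.13%, and the lower share at 5 dpw went with a larger number of Krt1 plus Krt10 high cells. No unwounded cell was Flg-high, 0 of 534 fl/fl cells and 0 of 235 +/+ cells, which by the limit of 3 counts allows shares of up to 0.562% and 1.28%, where the exact intervals end at 0.688% and 1.56%. With 1 pool a condition these shares were not tested.

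**Figure D2:**
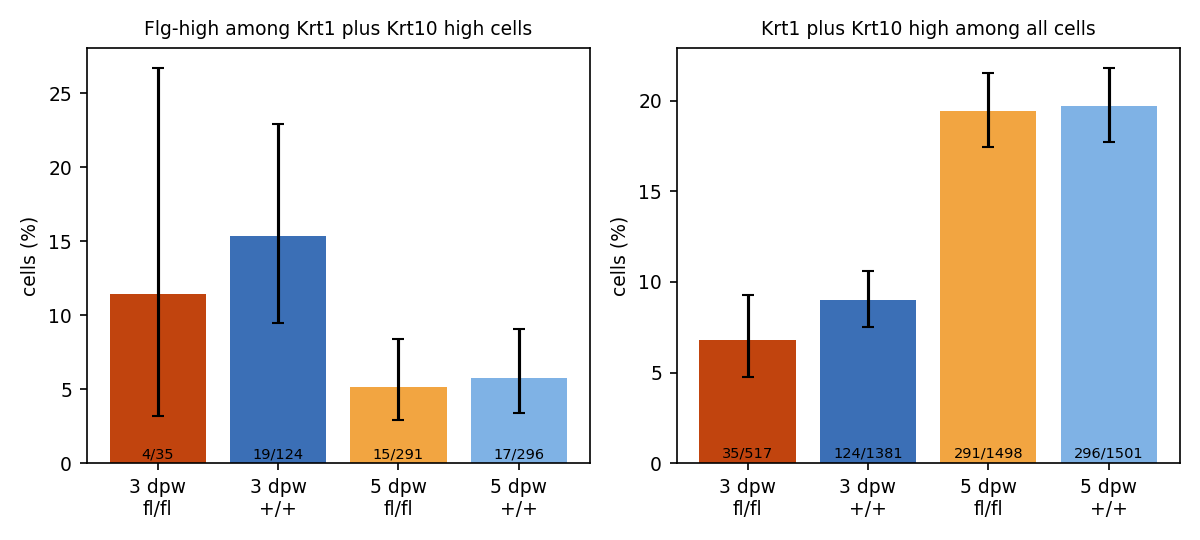
Bars give the share of Flg-high cells among Krt1 plus Krt10 high cells (left) and of Krt1 plus Krt10 high cells among all cells (right), in percent, for the 4 wounded pools, with the cells counted at the foot of each bar and exact 95% intervals of counting error as whiskers. Flg-high shares were 11.4% and 15.3% at 3 dpw and 5.15% and 5.74% at 5 dpw in fl/fl and +/+ cells.

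All other genes were compared between Flg-high and Flg-low cells of the same pool. UMIs were summed per class and pool and tested with edgeR's quasi-likelihood test with the pool as a block, and Benjamini-Hochberg adjustment over 9609 genes. The 3 dpw fl/fl pool, with 4 Flg-high cells, stayed out of the fit, so n = 3 pools, and its values are printed beside the others. At an adjusted p under 0.05, 989 genes (10.3%) differed. Of these, 656 (6.83%) were higher and 333 (3.47%) lower in Flg-high cells, 360 and 222 of them by at least 2-fold. These 2 shares of all genes tested are the background of every list count of this fit given below. The split between higher and lower depends on the scaling. TMM factors gave 66.3% higher, while plain totals moved the median log2 fold of all genes by -0.18 and gave 455 higher and 634 lower genes (41.8% higher). The count also rests on single pools. It was 356 without the 3 dpw +/+ pool, 488 without the 5 dpw +/+ pool and 1262 without the 5 dpw fl/fl pool. Cells with at least 2 Xist UMIs were more frequent among Flg-high than Flg-low cells, 63.2% against 42.9% at 3 dpw and 41.2% against 18.6% at 5 dpw in the +/+ pools. They numbered 0 in the Flg-high cells of both fl/fl pools, and 0 of 31 and 4 of 276 in the Flg-low cells of these pools. Xist-positive cells thus differed between the genotypes too, and their part in a contrast of fl/fl with +/+ cannot be told apart. Without such cells 333 genes passed. Against Flg-low cells matched on Krt1 plus Krt10, 3 for each Flg-high cell, 294 of 8093 genes tested passed, 233 higher and 61 lower. Of the 989 genes, 276 were among them with the same sign. List counts against matched cells stand beside these counts, and those with plain totals beside 455 higher and 634 lower of 9609 genes. Of the genes named here that passed, 21 missed the test against matched cells, namely Rptn, Tgm1, Tgm5, Dsp, Cldn1, Cldn4, Krt14, Krt80, Ass1, Tgfbi, Top2a, Ube2c, Mki67, Birc5, Cks2, Rrm1, Cdkn1a, Cdkn2b, Epgn, Hspe1 and Hspd1. Without Xist-positive cells 19 missed it, namely Skint9, Klk5, Klk6, Wfdc12, Cnfn, Tgm1, Sdr9c7, Cldn4, Krt14, Krt80, Grhl3, Notch1, Cks2, Rrm1, Mki67, Birc5, Cdkn1a, Cdkn2b and Nupr1.

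**Figure D3:**
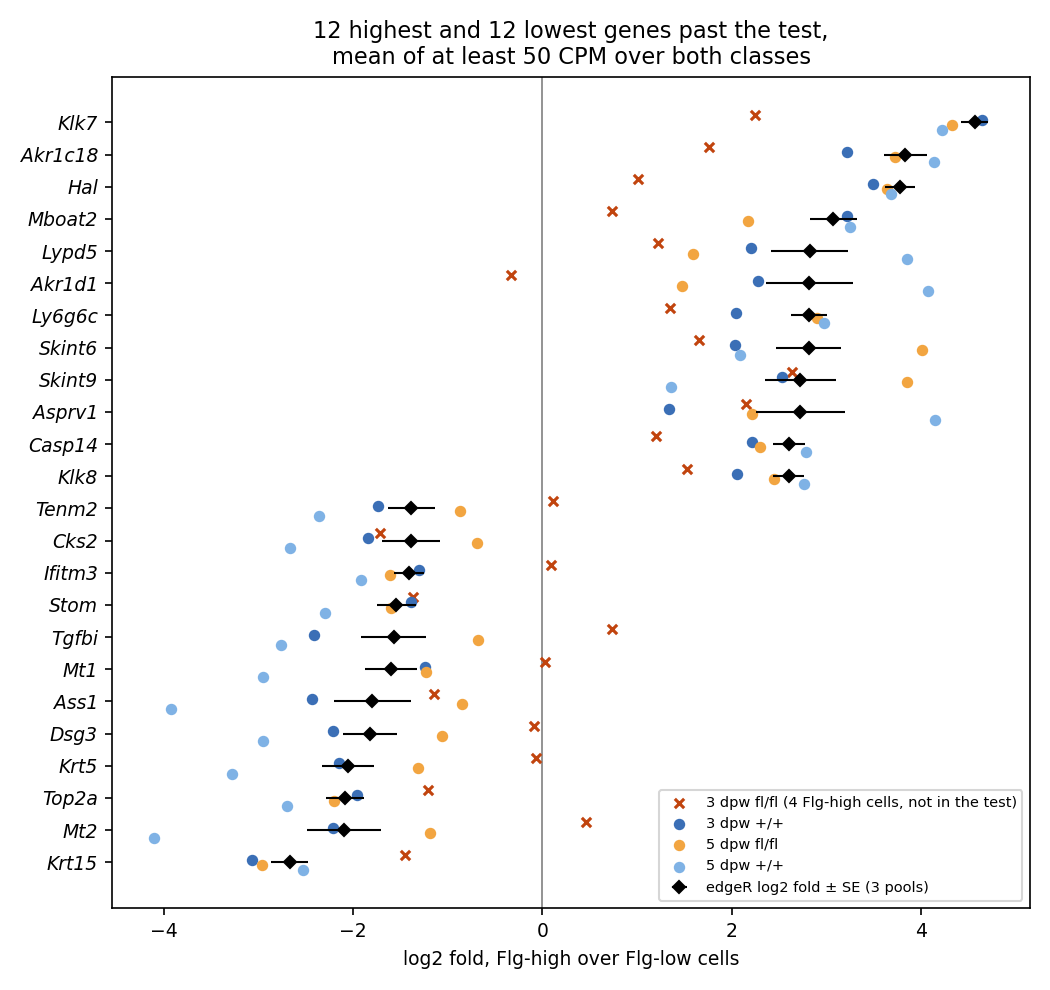
Shown are the 12 highest and 12 lowest log2 folds past the test. The genes had at least 50 CPM as the mean over both classes and 1 sign in every fitted pool. Circles and crosses give the log2 fold of Flg-high over Flg-low cells in each pool, from plain totals. Diamonds give the edgeR log2 fold of the 3 pools fitted, with TMM factors, and a standard error derived from the F statistic of the test. Crosses mark the 3 dpw fl/fl pool of 4 Flg-high cells, which was not fitted and lies on the other side of 0 for Akr1d1, Tenm2, Ifitm3, Tgfbi, Mt1 and Mt2.

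Among genes past the test with at least 50 CPM as the mean over both classes, the largest rise was that of Klk7, the chymotrypsin-like kallikrein that cuts the corneodesmosomes of shedding cells. Klk7 stood at 107, 459, 318 and 864 CPM in Flg-high cells, against 22.5, 18.3, 15.8 and 46.1 CPM in Flg-low cells. Every Flg-high value was above every Flg-low value. The mean over the 3 fitted pools was 547 ± 283 CPM, against 26.7 ± 16.8 CPM (SD, n = 3), and the log2 fold 4.57 ± 0.14 (SE, adjusted p = 2.35e-06 by edgeR). UMIs of Klk7 were in 70.9% of Flg-high cells and 15.8% of Flg-low cells, and no single cell held more than 12.9% of them. Klk7 lies on chromosome 7 at 43811294-43816387 in the kallikrein cluster, next to Klk8 at 43797532-43803826, which encodes a tryptic kallikrein. Klk8 was at 387, 523, 451 and 844 CPM in Flg-high cells, against 134, 126, 82.7 and 124 CPM in Flg-low cells. Its log2 fold was 2.60 ± 0.17 (SE, adjusted p = 0.000123), again with no overlap between the classes.

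Genes whose products take filaggrin apart rose beside Klk7. Hal encodes histidase, which turns histidine, an abundant product of filaggrin, to urocanic acid. It was at 66.2, 238, 107 and 174 CPM in Flg-high cells, against 32.7, 21.2, 8.56 and 13.6 CPM in Flg-low cells, with a log2 fold of 3.78 ± 0.16 (SE, adjusted p = 1e-05). Casp14 was at 122, 369, 296 and 380 CPM in Flg-high cells, against 53.3, 79.5, 60.2 and 55.2 CPM in Flg-low cells, with a log2 fold of 2.61 ± 0.17 (SE, adjusted p = 0.000123). Both genes were higher in all 4 pools without overlap. Asprv1 encodes the aspartic protease that in mouse skin cleaves profilaggrin. It was at 336, 565, 546 and 1965 CPM in Flg-high cells, against 75.8, 223, 118 and 110 CPM in Flg-low cells, with a log2 fold of 2.73 ± 0.47 (SE, adjusted p = 0.00991). Few cells set the 5 dpw +/+ value, where single cells stood at 13130, 11945 and 7351 CPM and the next at 1086 CPM. Over all 4 wounded pools the median Flg-high cell had Asprv1 at 201 CPM and the median Flg-low cell at 31.6 CPM. Blmh, the bleomycin hydrolase that frees amino acids from filaggrin, was at 494, 675, 453 and 853 CPM in Flg-high cells, against 353, 302, 238 and 230 CPM in Flg-low cells. Its fold was smaller, 1.5 ± 0.19 on the log2 scale (SE, adjusted p = 0.00271). Of 14 filaggrin processing genes listed, 11 were tested, 6 rose and 0 fell, with a median log2 fold of 0.75 where the median of all genes tested was -0.03. With plain totals 5 rose and 1 fell.

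The other genes among the 12 most raised at a mean of at least 50 CPM over both classes came from several families. Genes under that limit, such as Hrnr, Rptn, Klk5, Klk6 and Ivl, had larger folds than some of them and are given with their families. Akr1c18 encodes a progesterone-reducing steroid dehydrogenase and Akr1d1 a steroid 5β-reductase. Akr1c18 had a log2 fold of 3.84 ± 0.23 (SE, adjusted p = 0.000123), from 15.3, 156, 82.6 and 84.8 CPM in Flg-high cells, against 4.49, 16.7, 6.26 and 4.81 CPM in Flg-low cells. Akr1d1 had a log2 fold of 2.82 ± 0.46 (SE, adjusted p = 0.00734), but in the 3 dpw fl/fl pool it stood at 10.2 CPM in Flg-high cells and 12.8 CPM in Flg-low cells. Mboat2, a lysophospholipid acyltransferase, had a log2 fold of 3.07 ± 0.25 (SE, adjusted p = 0.000358), with UMIs in 87.3% of Flg-high cells and 23.4% of Flg-low cells. Ly6g6c and Lypd5 encode small anchored proteins of the Ly6 family. Ly6g6c was detected in every Flg-high cell and averaged 1311 ± 297 CPM, against 213 ± 63.0 CPM in Flg-low cells (SD, n = 3), with an adjusted p of 0.000149 by edgeR. The log2 fold of Lypd5 was 2.83 ± 0.41 (SE, adjusted p = 0.00442). Skint6 and Skint9 belong to a family of immunoglobulin-like proteins of skin whose members are close copies, so reads may be split among them and their values are uncertain. Their log2 folds were 2.81 ± 0.34 and 2.73 ± 0.37 (SE, adjusted p = 0.00212 and 0.00358). Without Xist-positive cells Skint9 did not pass (adjusted p = 0.272).

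Among the relatives of filaggrin, Hrnr was at 10.2, 89.6, 12.6 and 166 CPM in Flg-high cells, against 1.93, 1.35, 1.51 and 1.73 CPM in Flg-low cells, and passed the test with a log2 fold of 5.69 ± 0.57 (SE, adjusted p = 0.000947). Rptn (repetin) was at 10.2, 21.5, 9.17 and 202 CPM in Flg-high cells, against 6.42, 1.73, 3.6 and 1.42 CPM in Flg-low cells. It passed as well (adjusted p = 0.0199 by edgeR) but not without the 3 dpw +/+ pool (adjusted p = 0.0728), and 2 cells held 62.5% of its UMIs. Tchh (trichohyalin) did not pass, at 30.6, 17.7, 65.4 and 8.48 CPM in Flg-high cells, against 22.5, 28.7, 103 and 68.9 CPM in Flg-low cells. It passed without the 5 dpw fl/fl pool (adjusted p = 0.0179). Of the 3 tested relatives 2 therefore rose, and 3 more were too low to be tested.

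Of 27 tested precursors of the cornified envelope, 8 rose and 2 fell, with a median log2 fold of 0.52. Ivl was at 5.09, 45.7, 59.6 and 147 CPM in Flg-high cells, against 2.57, 5.58, 7.48 and 9.30 CPM in Flg-low cells, and its log2 fold was 3.58 ± 0.27 (SE, adjusted p = 0.000253). In the 3 dpw fl/fl pool that value was 1 UMI. Scel (sciellin) averaged 165 ± 32.2 CPM in Flg-high cells, against 70.8 ± 35.9 CPM in Flg-low cells (SD, n = 3, adjusted p = 0.00604 by edgeR). Sprr1b, a small proline-rich precursor, averaged 3004 ± 1031 CPM, against 1358 ± 199 CPM (SD, n = 3, adjusted p = 0.00715 by edgeR). Lor and Cnfn (cornifelin) also passed, with log2 folds of 3.51 ± 0.59 and 2.37 ± 0.54 (SE, adjusted p = 0.00877 and 0.0275). Without the 3 dpw +/+ pool their adjusted p was 0.109 and 0.145, and without the 5 dpw +/+ pool that of Cnfn was 0.0625. Of the Cnfn UMIs in Flg-high cells, 57.2% were in 2 cells. Sprr2i fell, but it belongs to a family of near-identical copies and is uncertain. Of the transglutaminases that crosslink the envelope, Tgm1 and Tgm5 rose by 1.57 ± 0.34 and 1.32 ± 0.21 on the log2 scale (SE, adjusted p = 0.0225 and 0.00628). Neither passed without the 3 dpw +/+ pool (adjusted p = 0.125 and 0.0652), and Tgm1 also missed without the 5 dpw +/+ pool (adjusted p = 0.0622). Against matched Flg-low cells 0 of the 3 transglutaminases passed with edgeR (adjusted p = 0.0583 for Tgm1 and 0.0522 for Tgm5), beside 294 of all 8093 genes tested. Without Xist-positive cells Tgm1 missed too (adjusted p = 0.0683 by edgeR). Tgm3, the epidermal enzyme of late cornification, did not pass, at 91.7, 191, 110 and 168 CPM in Flg-high cells, against 91.8, 161, 111 and 127 CPM in Flg-low cells.

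Of 20 tested kallikreins and protease inhibitors, 16 rose and 0 fell, with a median log2 fold of 1.64, and 14 higher with plain totals. Klk5, which activates Klk7 in the kallikrein cascade, was at 40.8, 57.8, 50.5 and 78.7 CPM in Flg-high cells, against 8.35, 5.96, 1.73 and 13.2 CPM in Flg-low cells, with a log2 fold of 3.61 ± 0.37 (SE, adjusted p = 0.000992). The highest Flg-low value was thus below the lowest Flg-high value. Klk6 stood at 5.09, 30.8, 20.6 and 183 CPM in Flg-high cells, against 1.93, 4.62, 2.09 and 10.6 CPM in Flg-low cells, with an adjusted p of 0.00042 by edgeR. Its UMIs were in 16 Flg-high cells, and 1 cell held 28.1% of them. Some inhibitors rose too. Spink5, which encodes LEKTI, the inhibitor of epidermal kallikreins, was at 96.8, 472, 331 and 1558 CPM in Flg-high cells, against 153, 119, 173 and 160 CPM in Flg-low cells. It rose in the 3 fitted pools by 2.26 ± 0.39 on the log2 scale (SE, adjusted p = 0.00947), was lower in the 3 dpw fl/fl pool, and did not pass without the 3 dpw +/+ pool (adjusted p = 0.053). Cst6 (cystatin M/E, a cysteine protease inhibitor of cornification) averaged 1019 ± 113 CPM, against 406 ± 45.3 CPM (SD, n = 3, adjusted p = 0.000123 by edgeR). Wfdc12, a whey acidic protein inhibitor, was at 367, 40.1, 55.0 and 20.6 CPM in Flg-high cells, against 14.8, 10.2, 0.575 and 2.13 CPM in Flg-low cells (adjusted p = 0.0127 by edgeR). Its UMIs were in 20 Flg-high cells, and 1 cell held 38.9% of them. Without Xist-positive cells Klk5, Klk6 and Wfdc12 had log2 folds of 2.75, 2.13 and 3.66 and did not pass (adjusted p = 0.0512, 0.0699 and 0.0928).

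Enzymes that build the lipids of the barrier rose in 19 of 32 tested cases and fell in 0, with a median log2 fold of 1.07. Elovl4, which makes the very long fatty acids of acylceramides, was at 285, 732, 413 and 879 CPM in Flg-high cells, against 247, 297, 236 and 252 CPM in Flg-low cells, with a log2 fold of 1.49 ± 0.19 (SE, adjusted p = 0.00271). In the 3 dpw fl/fl pool its 2 values were close, and in the other pools they were well apart. Sptlc3, a subunit of the enzyme that starts sphingolipid synthesis, had a log2 fold of 2.0 ± 0.26 (SE, adjusted p = 0.00264). Dgat2, a triacylglycerol synthase, had 1.94 ± 0.19 on the log2 scale (SE, adjusted p = 0.000764). Sdr9c7, a dehydrogenase that acts on acylceramides, averaged 37.6 ± 24.5 CPM, against 9.08 ± 0.863 CPM (SD, n = 3, adjusted p = 0.00895 by edgeR). Enzymes of cholesterol synthesis, which the barrier also needs, rose in 13 of 17 tested cases and fell in 0, by a smaller median of 0.78, and in 8 cases with plain totals. Lss, for lanosterol synthase, had a log2 fold of 1.39 ± 0.21 (SE, adjusted p = 0.00499), and Fdps, for farnesyl diphosphate synthase, had 0.94 ± 0.13 (SE, adjusted p = 0.00353).

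Junction genes changed in both directions. Of 13 tested desmosome genes 6 rose and 2 fell. Dsc1 and Dsg1a, the desmosomal cadherins of upper layers, were higher. Dsc1 was at 148, 499, 275 and 607 CPM in Flg-high cells, against 151, 156, 135 and 132 CPM in Flg-low cells (log2 fold 1.82 ± 0.22, SE, adjusted p = 0.00203). Dsg1a averaged 703 ± 157 CPM, against 360 ± 22.8 CPM (SD, n = 3, adjusted p = 0.00172 by edgeR). Dsg3, the cadherin of the basal layer, was lower at 204, 54.1, 151 and 43.6 CPM in Flg-high cells, against 217, 250, 315 and 337 CPM in Flg-low cells (log2 fold -1.82 ± 0.28, SE, adjusted p = 0.00631). Dsp (desmoplakin) rose by 0.58 ± 0.09 on the log2 scale (SE, adjusted p = 0.00641), and its adjusted p was 0.0597 without the 3 dpw +/+ pool. In the tight junction 4 of 11 tested genes rose, among them Cldn1 by 0.96 ± 0.15 (SE, adjusted p = 0.00604) and Cldn4 by 1.08 ± 0.28 (SE, adjusted p = 0.0414), both claudins. Cldn4 did not pass without either 5 dpw pool (adjusted p = 0.126 without fl/fl and 0.148 without +/+). Against matched Flg-low cells 0 of 9 tested tight junction genes passed with edgeR, beside 294 of all 8093 genes tested. Cldn1 had a log2 fold of 0.61 there (adjusted p = 0.174 by edgeR).

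**Figure D4:**
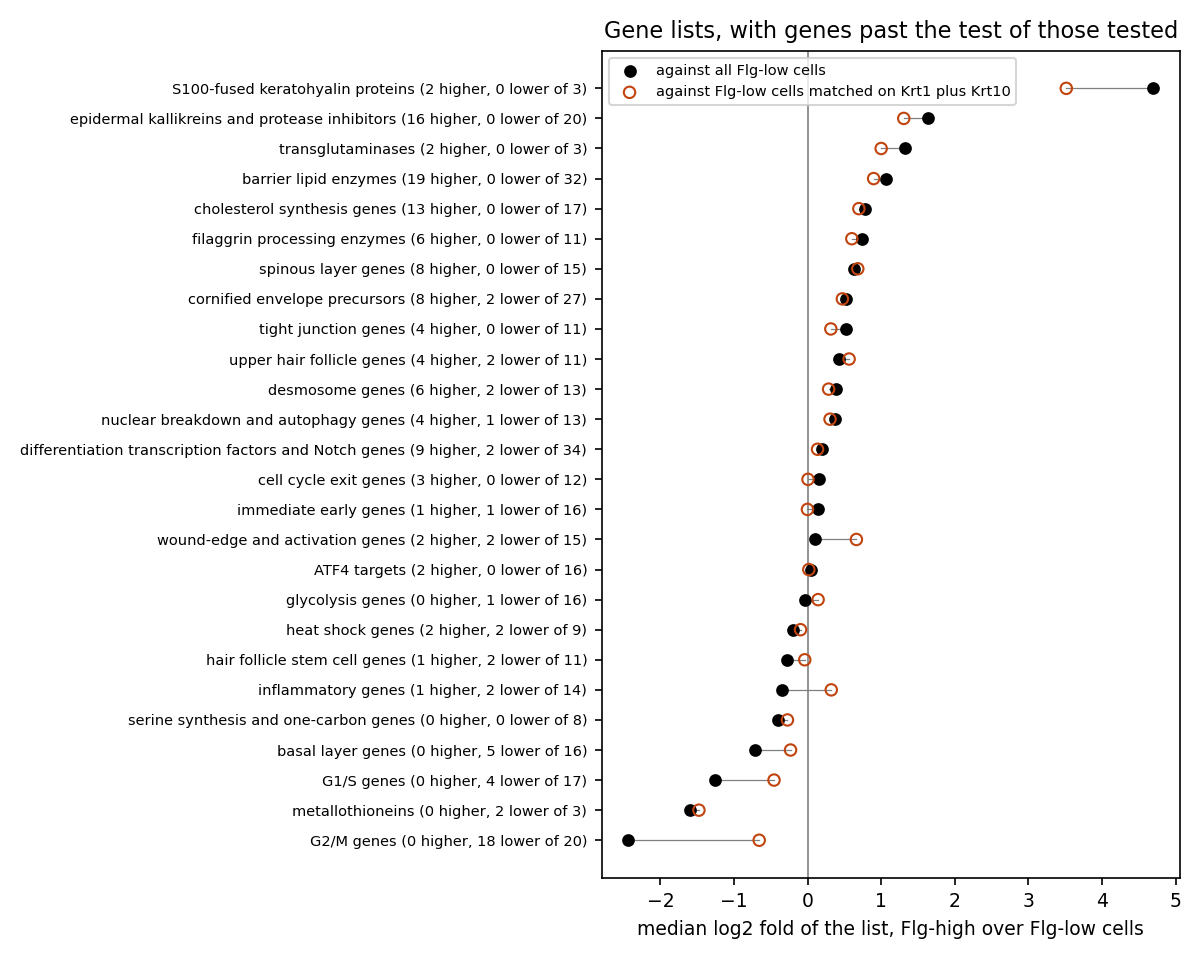
For each gene list with at least 3 genes tested, the filled point gives the median log2 fold of Flg-high over all Flg-low cells, and the open point that over Flg-low cells matched on Krt1 plus Krt10. The labels count the genes past the edgeR test among those tested. Kallikreins and inhibitors had a median of 1.64 (1.31 matched), and G2/M genes -2.44, or -0.66 over the fewer genes tested when matched.

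Spinous genes rose too, 8 of 15 tested with 0 lower. Calm4, a calmodulin-like protein of the suprabasal layers, averaged 11586 ± 1786 CPM, against 3333 ± 1033 CPM (SD, n = 3, adjusted p = 0.000123 by edgeR). Sbsn (suprabasin) averaged 2654 ± 1019 CPM, against 906 ± 197 CPM, and Krtdap, a secreted protein of differentiating keratinocytes, 8378 ± 1342 CPM, against 5095 ± 529 CPM (SD, n = 3, adjusted p = 0.00172 and 0.00135 by edgeR). Krt80, a keratin of advanced differentiation, averaged 61.7 ± 3.39 CPM, against 23.9 ± 10.6 CPM (SD, n = 3, adjusted p = 0.00911 by edgeR). It did not pass against matched Flg-low cells (log2 fold 0.98, adjusted p = 0.0819) or without Xist-positive cells (adjusted p = 0.0699). Krt77 did not pass. It was at 0, 405, 142 and 4.84 CPM in Flg-high cells, against 12.8, 24.1, 5.04 and 22.2 CPM in Flg-low cells, and 2 of the 9 cells with it held 94.0% of its UMIs. Without the 5 dpw +/+ pool Krt77 passed (adjusted p = 1.58e-06 by edgeR).

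Basal genes were lower where they changed. Of 16 tested, 5 fell and 0 rose, with a median log2 fold of -0.72. Krt15, a keratin of basal and follicle stem cells, was at 25.5, 17.7, 14.9 and 24.2 CPM in Flg-high cells, against 69.3, 148, 116 and 140 CPM in Flg-low cells, with a log2 fold of -2.67 ± 0.20 (SE, adjusted p = 0.000253). All 4 Flg-high values were below all 4 Flg-low values. Krt5 was at 3041, 620, 1423 and 283 CPM in Flg-high cells, against 3182, 2753, 3543 and 2749 CPM in Flg-low cells, with a log2 fold of -2.05 ± 0.28 (SE, adjusted p = 0.00337). In the 3 dpw fl/fl pool, where 4 cells make up the Flg-high sum, its Flg-high value lay within the Flg-low range. Krt14, its partner, fell by 0.42 ± 0.05 on the log2 scale (SE, adjusted p = 0.00176) to 15632 ± 1846 CPM in Flg-high cells, against 23610 ± 2712 CPM in Flg-low cells (SD, n = 3). Against matched Flg-low cells its log2 fold was 0.16 (adjusted p = 0.64), and without Xist-positive cells -0.18 (adjusted p = 0.283). Dst, the dystonin of the hemidesmosome, had a log2 fold of -1.80 ± 0.26 (SE, adjusted p = 0.00477), but stood at 214 CPM in Flg-high cells and 66.1 CPM in Flg-low cells of the 3 dpw fl/fl pool.

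The hemidesmosome genes Itga6 and Col17a1 did not pass, and their direction differed between pools. Itga6, whose protein was the sort marker, was at 494, 19.6, 99.8 and 10.9 CPM in Flg-high cells, against 141, 80.2, 70.9 and 98.6 CPM in Flg-low cells. Col17a1 was at 433, 23.3, 75.7 and 8.48 CPM in Flg-high cells, against 150, 90.6, 74.7 and 87.1 CPM in Flg-low cells. Both were lower in the Flg-high cells of both +/+ pools, and higher or level in those of both fl/fl pools. Without the 5 dpw fl/fl pool both passed as lower, with log2 folds of -2.32 for Itga6 and -2.28 for Col17a1 (adjusted p = 5.91e-05 and 9.55e-05 by edgeR). Few cells set these values. Only 6 Flg-high cells had Itga6 at 100 CPM or more, 5 of them in fl/fl pools. Of the 6, 4 had under 90% of their hashtag UMIs in the top hashtag. The same held for 8 of all 55 Flg-high cells (14.5%) and 159 Flg-low cells (23.0%). With cells of at least 90% alone, Itga6 in the 5 dpw fl/fl pool was at 24.0 CPM in Flg-high cells and 68.0 CPM in Flg-low cells. Col17a1 was then at 14.8 CPM in Flg-high cells and 69.8 CPM in Flg-low cells of that pool. In the 3 dpw fl/fl pool, with 3 such Flg-high cells, both stayed higher. Itga6 was at 337 CPM there, against 102 CPM, and Col17a1 at 362 CPM, against 124 CPM. The part of mixed barcodes in the result was not tested beyond this.

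Other genes among the 12 most lowered at a mean of at least 50 CPM over both classes were of several kinds, and genes under that limit that fell further, such as Ube2c and Mki67, are given with their families. The metallothioneins Mt1 and Mt2, which bind zinc, were lower in the 3 fitted pools and not in the 3 dpw fl/fl pool. Mt1 was at 1431, 554, 949 and 211 CPM in Flg-high cells, against 1407, 1310, 2220 and 1632 CPM in Flg-low cells (log2 fold -1.60 ± 0.28, SE, adjusted p = 0.00983). Mt2 had a log2 fold of -2.10 ± 0.39 (SE, adjusted p = 0.0132), and an adjusted p of 0.0706 without the 3 dpw +/+ pool. Stom (stomatin) averaged 24.6 ± 7.40 CPM, against 80.8 ± 3.72 CPM, and was lower in all 4 pools (SD, n = 3, adjusted p = 0.0032 by edgeR). Ifitm3, an interferon-induced membrane protein, averaged 54.1 ± 28.4 CPM, against 158 ± 53.3 CPM (SD, n = 3, adjusted p = 0.00156 by edgeR). Ass1 (argininosuccinate synthase), Tgfbi (a secreted matrix protein) and Tenm2 (a teneurin) had log2 folds of -1.80, -1.57 and -1.38 (SE 0.41, 0.34 and 0.25, adjusted p = 0.0271, 0.0239 and 0.0112). None of these 3 passed without the 3 dpw +/+ pool (adjusted p = 0.136, 0.126 and 0.0746), nor did Tgfbi without the 5 dpw +/+ pool (adjusted p = 0.0559).

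Genes of division were lower in Flg-high cells than in all Flg-low cells, and less so against cells matched on keratins. Of 20 G2/M genes 18 fell and 0 rose, with a median log2 fold of -2.44, and their summed level was 47.2 to 146 CPM in Flg-high cells, against 544 to 929 CPM in Flg-low cells. Top2a, the topoisomerase of mitotic chromosomes, was at 35.7, 18.7, 20.6 and 14.5 CPM in Flg-high cells, against 82.2, 72.5, 94.7 and 94.2 CPM in Flg-low cells (log2 fold -2.09 ± 0.20, SE, adjusted p = 0.000802). Ube2c, a ubiquitin-conjugating enzyme of mitotic exit, was at 10.2, 11.2, 8.03 and 7.27 CPM in Flg-high cells, against 149, 60.6, 91.4 and 76.8 CPM in Flg-low cells (log2 fold -2.89 ± 0.26, SE, adjusted p = 0.000647). Neither gene's classes overlapped. Mki67, the proliferation marker, had no UMI in the Flg-high cells of 2 pools and was at 0, 21.5, 9.17 and 0 CPM in the 4 pools, against 80.3, 54.3, 75.7 and 76.0 CPM in Flg-low cells. Cks2, a subunit of cyclin-dependent kinases, and the inhibitor of apoptosis Birc5 also fell (adjusted p = 0.0246 and 0.00631 by edgeR), Cks2 not without the 3 dpw +/+ or 5 dpw +/+ pool (adjusted p = 0.135 and 0.0577). Of 17 tested G1/S genes 4 fell and 0 rose, among them Rrm1 of ribonucleotide reductase (log2 fold -1.39 ± 0.27, SE, adjusted p = 0.0154), which did not pass without the 3 dpw +/+ pool (adjusted p = 0.0929). When Flg-low cells were matched on Krt1 plus Krt10, 7 of the G2/M genes were high enough to be tested. Of these 0 passed, beside 294 of all 8093 genes tested, and their median log2 fold was -0.66. The log2 fold of Top2a was then -0.57 (adjusted p = 0.557 by edgeR). After thinning every cell to 5000 UMIs, 29.1% of Flg-high cells had a UMI of a G2/M gene, against 42.3% of Flg-low cells. The exact 95% intervals, 17.6 to 42.9 and 38.5 to 46.0, overlapped. By pool the shares were 25%, 36.8%, 40% and 11.8% in Flg-high cells, against 54.8%, 43.8%, 40.6% and 41.9% in Flg-low cells. In the 5 dpw fl/fl pool they were thus nearly level. Unthinned the shares over all 4 wounded pools were 89.1% and 90.4%. Among genes of cell cycle exit 3 of 12 rose, beside 6.83% of all genes tested. They included Cdkn2b and Cdkn1a, cyclin kinase inhibitors (log2 folds 1.2 and 0.61, SE 0.21 and 0.13, adjusted p = 0.011 and 0.021). Neither passed without the 3 dpw +/+ pool (adjusted p = 0.0831 and 0.0718), nor Cdkn1a without the 5 dpw +/+ pool (adjusted p = 0.116).

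Cells were also ordered by their Flg level, in 4 tiers of no Flg UMI (619 cells), above 0 and under 100 CPM (72 cells), 100 to under 500 CPM (23 cells) and 500 CPM and over (32 cells). Flg chose the tiers, and the values of other genes are a description of cells of all 4 wounded pools. Klk7 was at 26.9, 36.8, 144 and 754 CPM from the lowest to the highest tier, Hal at 10.4, 37.4, 70.8 and 238 CPM, and Casp14 at 54.2, 112, 206 and 422 CPM. These 3 genes increased at each step, and Klk7 most of all at the last. Skint6 was as high in the third tier as in the highest, at 14.9, 55.1, 109 and 108 CPM. Krt15 dropped at the 100 CPM limit, at 129, 118, 20.8 and 18.1 CPM, while Krt5 went down at every step, at 3174, 2554, 1529 and 510 CPM. Summed G2/M genes were at 675, 585, 179 and 70.3 CPM. Itga6 was at 81.9, 118, 139 and 26.6 CPM and had its lowest level only in the highest tier.

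**Figure D5:**
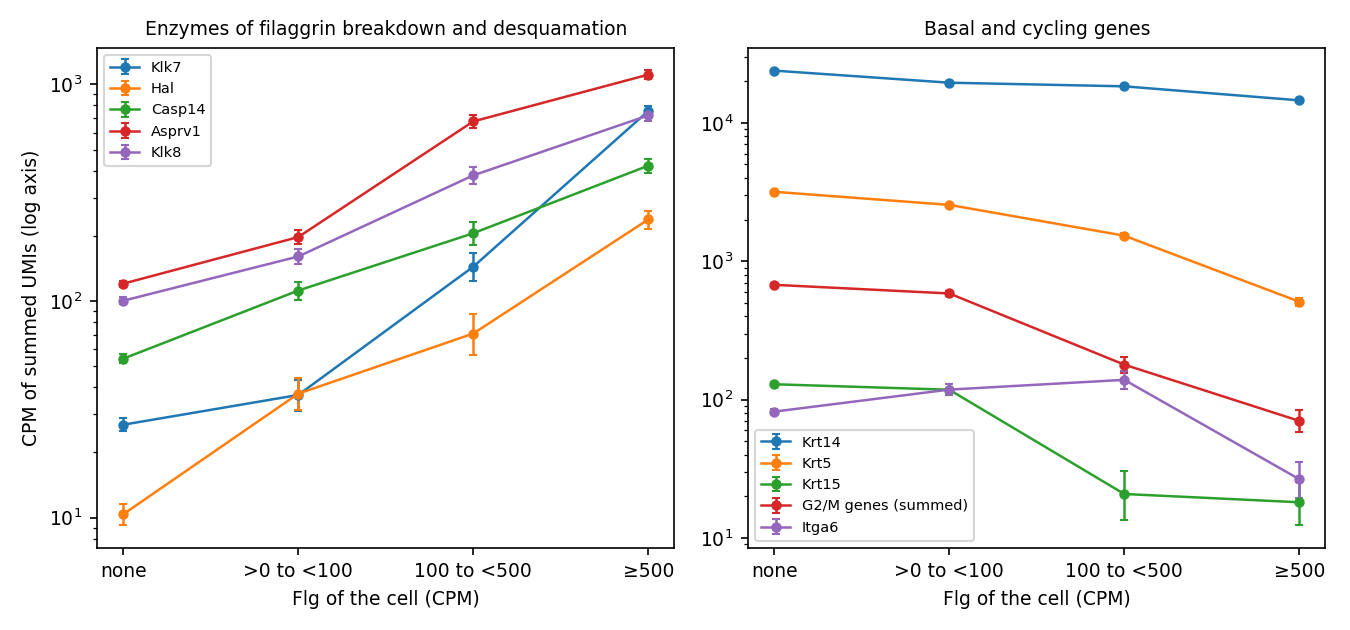
Points give the CPM of UMIs summed over the cells of each Flg tier (log axis), with exact Poisson 95% intervals of counting error, for genes of filaggrin breakdown and desquamation (left) and for basal and cycling genes (right). Klk7 reached 754 CPM in the highest tier and 26.9 CPM in cells with no Flg UMI, while Krt5 stood at 510 and 3174 CPM in the same tiers.

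Of 34 tested transcription factors and Notch genes of differentiation 9 rose and 2 fell. Klf4, a factor of barrier formation, was at 540, 973, 789 and 866 CPM in Flg-high cells, against 424, 562, 452 and 489 CPM in Flg-low cells (log2 fold 0.98 ± 0.10, SE, adjusted p = 0.000848). Grhl3, a grainyhead-like factor of the barrier, Hopx, a homeodomain-only protein, and Rora, an orphan nuclear receptor, had log2 folds of 1.32, 1.5 and 1.31 (SE 0.26, 0.24 and 0.12, adjusted p = 0.0162, 0.00767 and 0.000744). Notch1, a receptor that promotes spinous differentiation, was lower at 5.09, 12.1, 27.5 and 18.2 CPM in Flg-high cells, against 31.5, 40.0, 59.1 and 55.9 CPM in Flg-low cells (log2 fold -1.28 ± 0.21, SE, adjusted p = 0.00877). It did not pass without the 3 dpw +/+ pool (adjusted p = 0.0679). Of 11 tested follicle stem cell genes 1 rose and 2 fell, beside 6.83% and 3.47% of all genes tested. The gene that rose was Cd200, a surface marker of the bulge, at 58.9 ± 18.2 CPM, against 20.1 ± 8.41 CPM (SD, n = 3, adjusted p = 0.00123 by edgeR).

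Keratins of the wound were high in both classes. Krt6b rose by 0.55 ± 0.12 on the log2 scale (SE, adjusted p = 0.025) to 5674 ± 1187 CPM in Flg-high cells, against 4318 ± 544 CPM in Flg-low cells (SD, n = 3). The call was lost without the 3 dpw +/+ pool (adjusted p = 0.105) or the 5 dpw +/+ pool (adjusted p = 0.0684), and with cells of at least 90% of hashtag UMIs in the top hashtag the log2 fold was -0.0579 (adjusted p = 0.947). Krt6a, Krt16 and Krt17 did not pass, at 5313 ± 931, 12481 ± 4290 and 1370 ± 853 CPM in Flg-high cells, against 5552 ± 506, 10242 ± 734 and 994 ± 70.4 CPM in Flg-low cells (SD, n = 3). Krt16 passed as higher without the 5 dpw fl/fl pool (adjusted p = 0.0006 by edgeR) and Krt17 without the 3 dpw +/+ pool (adjusted p = 0.00551 by edgeR). Against Flg-low cells matched on Krt1 plus Krt10, 3 of these 4 keratins passed as higher, Krt6b by 1.15, Krt6a by 0.85 and Krt16 by 0.82 on the log2 scale (adjusted p = 0.00095, 0.0169 and 0.0444 by edgeR). Cd44, the hyaluronan receptor of migrating cells, was lower in all 4 pools at 275, 119, 182 and 114 CPM, against 329, 302, 354 and 362 CPM (log2 fold -1.14 ± 0.15, SE, adjusted p = 0.0027). Nrg1, a ligand of ERBB receptors, fell as well (adjusted p = 0.0133 by edgeR, 0.0783 without the 3 dpw +/+ pool). Nrg1 was at 392 CPM in Flg-high cells and 132 CPM in Flg-low cells of the 3 dpw fl/fl pool. Epgn (epigen), an EGF receptor ligand, rose (adjusted p = 0.0428 by edgeR) but not without the 3 dpw +/+ or 5 dpw +/+ pool (adjusted p = 0.118 and 0.136). Of 15 tested wound-edge genes 2 rose and 2 fell, beside 6.83% and 3.47% of all genes tested.

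The study asks about serine and the integrated stress response, so their genes were read in these cells too. Of 8 tested genes of serine synthesis and one-carbon metabolism 0 passed with edgeR, with a median log2 fold of -0.40. Phgdh had 0, 62, 57 and 22 UMIs in Flg-high cells, or 0, 57.8, 65.4 and 26.6 CPM, against 49.4, 112, 14.0 and 116 CPM in Flg-low cells. It was lower in the Flg-high cells of both +/+ pools and higher in those of the 5 dpw fl/fl pool, where 6 of 15 cells had it. Without the 5 dpw fl/fl pool its log2 fold of -0.12 ± 0.64 (SE, adjusted p = 0.935) was -1.265 (adjusted p = 0.00267 by edgeR). Psat1 and Psph, the next enzymes of the pathway, did not pass, at 71.4 ± 19.9 and 134 ± 25.4 CPM in Flg-high cells, against 87.1 ± 9.73 and 183 ± 28.4 CPM in Flg-low cells (SD, n = 3). Atf4, the factor of the integrated stress response, was at 143, 118, 139 and 101 CPM in Flg-high cells, against 120, 127, 137 and 117 CPM in Flg-low cells, and did not pass. Where 6.83% of all genes tested rose and 3.47% fell, 2 of 16 tested ATF4 targets rose and 0 fell. These were Slc7a11, the cystine transporter, and Nupr1, a stress-induced nuclear protein (log2 folds 1.66 and 0.78, SE 0.37 and 0.12, adjusted p = 0.0268 and 0.00654), Slc7a11 not without the 5 dpw +/+ pool (adjusted p = 0.0573) and Nupr1 not without Xist-positive cells (log2 fold 0.41, adjusted p = 0.227).

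Between genotypes and days the Flg-high cells could be given by their counts alone, since every pool had fewer than 20 of them and stood for 1 condition. Casp14 had 24, 395, 258 and 314 UMIs and Ivl 1, 49, 52 and 121 UMIs in the 4 pools, from totals of 196319, 1071813, 872125 and 825651 UMIs. Atf4 had 28, 127, 121 and 83 UMIs and Asns, the asparagine synthetase that ATF4 induces, 12, 53, 51 and 46. No difference between fl/fl and +/+, or between 5 and 3 dpw, was read from these counts.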

How the data were processed

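The deposited matrix holds UMI counts per feature (gene or hashtag) and barcode, per the file headers, and lists all barcodes of 1 capture. Per the submitters' processing notes the authors used Cell Ranger 7.1.0, mm10 and Seurat 4.3.0. The gene and hashtag libraries are of the same cells and share their barcodes. Hashtag names cKO and WT were read as fl/fl and +/+.

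Barcodes with at least 5000 gene UMIs, at most 10% mitochondrial UMIs, and a hashtag of at least 20 UMIs and 70% of hashtag UMIs were kept. No doublet caller was run. Doublets of unlike hashtags in near equal parts fail the hashtag rule, those of like hashtags stay, and alternatives used 90% of hashtag UMIs or left out the tenth of cells with the most UMIs. Free RNA was not subtracted. UMIs were summed per pool and class (825651 to 1071813 in Flg-high sums and 5197086 to 13901294 in Flg-low sums) and tested with edgeR 4.0.16 (R 4.3.3, TMM factors, filterByExpr, pool as a block) in pools with at least 10 cells in both classes. The SE of a log2 fold is its absolute value divided by the square root of the quasi-likelihood F statistic, whose dispersion is moderated over genes. Log2 folds of single pools are from plain totals, without TMM factors. DESeq2 1.42.0 and limma 3.58.1 served as alternatives. The pools differ in genotype and day and are 1 pool each, so a p-value measures the spread over 3 unlike pools, not over animals. Intervals and limits for a count of 0 (3 counts) cover counting error only.

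Named genes are the 12 highest and 12 lowest log2 folds past the test with at least 50 CPM and 1 sign in every fitted pool (without the choosing genes and mitochondrial, ribosomal, Gm- and Rik-named, sex-linked marker genes), up to 6 members of at least 20 CPM of each list, and a fixed set of markers and serine and stress genes. The text gives part of the list members. The members, lists and tests were chosen with earlier results of these data known. On simulated counts for this comparison (9711 genes) the test recovered 30 of 50 genes raised 2-fold, 16 of 50 lowered 2-fold, and 50 and 49 of 50 changed 4-fold, and called 3 of 9511 unchanged genes. These counts were drawn independently per gene around the Flg-low means of each pool, at 1 fixed dispersion. They held no genes confined to few cells and no difference in keratin level or sex between classes. The simulation therefore does not measure false calls from such sources in the data. Coordinates and promoters are RefSeq's (GRCm38.p6). Per the labels no animal numbers are given.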

Additional observations from a re-analysis of the deposited data

Results flagged for a closer look

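By plain totals, the class difference of 5 flagged genes had opposite signs in the pools of the 2 genotypes, in every pool. These 5 are not a full count, and the share of all genes tested with this pattern was not counted. Tjp1, a tight junction gene, also had it, with log2 folds of -0.12, 0.61, -0.15 and 0.52. The fit used TMM factors, at 0.944, 0.983 and 0.896 in the Flg-high sums of 3 dpw +/+, 5 dpw fl/fl and 5 dpw +/+. In the Flg-low sums of these pools they were 1.045, 1.074 and 1.072, which raises each fold against plain totals. The signs of folds near 0, such as those of Atf4 and Tgm3, therefore depend on the scaling. The difference between genotypes was not tested, and the fl/fl value at 3 dpw rests on 4 Flg-high cells. Log2 folds of Flg-high over Flg-low cells are given for 3 dpw fl/fl, 3 dpw +/+, 5 dpw fl/fl and 5 dpw +/+. Itga6 had 1.81, -2.03, 0.49 and -3.18. Col17a1 had 1.53, -1.96, 0.018 and -3.36. Both are hemidesmosome genes, and 4 of the 6 Flg-high cells with Itga6 at 100 CPM or more had under 90% of their hashtag UMIs in the top hashtag. The same held for 14.5% of all Flg-high cells and 23.0% of all Flg-low cells. Krt16 had -0.52, 0.17, -0.23 and 0.74. Atf4 had 0.25, -0.10, 0.0216 and -0.22, and Tgm3 -0.00213, 0.25, -0.00827 and 0.40. The 95% counting intervals of Tgm3 in the fl/fl pools were -0.80 to 0.71 at 3 dpw and -0.32 to 0.29 at 5 dpw. That of Col17a1 in the 5 dpw fl/fl pool was -0.36 to 0.38.

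Among 741 barcodes that passed the UMI and mitochondrial filters but had no hashtag call, 54 were Krt1 plus Krt10 high and 2 were Flg-high (3.70%, exact 95% interval 0.452 to 12.7). Neither had under 20 UMIs in its top hashtag, so both failed on the share of hashtag UMIs.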

How the results depend on the processing

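The number of genes past the test moved with the pools and the scaling. Leaving out 1 pool gave 356 to 1262 genes, 270 to 780 higher and 86 to 482 lower. Plain totals gave 634 lower genes, a Krt1 plus Krt10 limit of 10000 CPM 190 lower, no filter on low counts 1593 genes with 759 lower, and equal weight per cell (limma) 1548 with 1005 lower. Without Xist-positive cells, in pools of at least 5 Flg-high cells, 333 passed (264 higher, 69 lower), and with Flg-low cells matched on keratin 294 (233 higher, 61 lower). These last 2 were chosen after seeing the data, as were all 4 pools together and removal of the cell with most Flg UMIs in each pool. Both use fewer cells, and other causes were not tested. DESeq2 gave 791 genes, and the fit without the pool block 1164, of which 876 were among the 989.

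Of the 94 genes the text names, 79 passed the test. Of these 79, 21 missed it without the 3 dpw +/+ pool, 9 without the 5 dpw +/+ pool, 1 without the 5 dpw fl/fl pool, 21 against matched cells and 19 without Xist-positive cells. Signs turned for 8 genes, of which Krt6b and Krt14 had passed the test. Phgdh (-0.12) ranged from -1.265 to 0.65 over the fits without 1 pool, with 0.35 without 3 dpw +/+, and turned to 0.19 without Xist-positive cells and 0.00758 against matched cells. Psat1 (-0.12) ranged from -0.43 to 0.0334 without 1 pool and turned to 0.0434 without the cells of most UMIs and 0.0527 without Xist-positive cells. Krt79 (1.44, not past the test, 96.7% of UMIs in 2 cells) ranged from -0.0272 to 2.83 without 1 pool and turned to -1.64 without the cells of most UMIs, -0.78 at equal weight and -1.06 without Xist-positive cells. Atf4 (0.08) turned to -0.10 with plain totals, -0.024 at a Flg limit of 200 CPM and -0.0754 at equal weight. Krt6a (0.10) ranged from -0.12 to 0.22 without 1 pool and turned to -0.0763 with plain totals, -0.29 at 200 CPM Flg, -0.27 at 90% hashtag and -0.22 with all 4 pools, while against matched cells it passed as higher (0.85, adjusted p = 0.0169 by edgeR). Krt17 (0.39) ranged from -0.11 to 1.09 without 1 pool and turned to -0.0295 at equal weight, -0.0545 with all 4 pools and -0.13 without Xist-positive cells. Krt6b turned to -0.0579 at 90% hashtag, and Krt14 to 0.16 against matched cells. The causes were not tested.

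No paired analysis was possible because the labels give no replicate numbers and each condition is 1 pool, which is itself the block of the test. The planned fit without Xist-positive cells in pools of at least 10 Flg-high cells left fewer than 3 pools and was not run. With 4 to 19 Flg-high cells a pool, single cells can set the sum of a gene.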

Other observations

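Genes of nuclear breakdown and autophagy, which clear organelles before cornification, rose in 4 of 13 tested cases and fell in 1, with a median log2 fold of 0.37 and summed levels of 2196 to 2466 CPM in Flg-high cells, against 1594 to 1881 CPM in Flg-low cells. Endou, for a poly(U)-specific endoribonuclease, was at 204, 298, 282 and 488 CPM in the Flg-high cells of 3 dpw fl/fl, 3 dpw +/+, 5 dpw fl/fl and 5 dpw +/+ pools, against 140, 189, 207 and 202 CPM in Flg-low cells (log2 fold 0.97 ± 0.18, SE, adjusted p = 0.0133 by edgeR, 0.0531 without the 3 dpw +/+ pool). Of 9 heat shock genes 2 rose and 2 fell, the 2 lower being Hspe1 and Hspd1, partner chaperonins of mitochondria, at log2 folds of -1.03 ± 0.16 and -0.80 ± 0.13 (SE, adjusted p = 0.00676 and 0.00675 by edgeR). Hspe1 had an adjusted p of 0.0531 without the 3 dpw +/+ pool. With plain totals 0 of the 9 rose. Atp6v1c2, a subunit of the proton pump of vesicles listed with upper hair follicle genes, averaged 50.8 ± 6.10 CPM in Flg-high cells, against 10.2 ± 1.34 CPM in Flg-low cells (SD, n = 3, adjusted p = 0.000318 by edgeR), and was higher in all 4 pools.

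Of 11 tested upper hair follicle genes 4 rose (Cst6, Defb6, Atp6v1c2 and Nebl) and 2 fell (Lrig1 and Fst), with a median log2 fold of 0.43. Of all genes tested 6.83% rose and 3.47% fell. With plain totals 2 of the 11 rose and 2 fell. Krt79 and Plet1, markers of the upper hair follicle, did not pass. Krt79 was at 0, 11.2, 822 and 899 CPM in Flg-high cells, against 105, 251, 119 and 161 CPM in Flg-low cells, and its 2 highest cells stood at 9584 and 8605 CPM. It passed as higher without the 3 dpw +/+ pool (log2 fold 2.83, adjusted p = 0.000118 by edgeR). Plet1 was at 20.4, 62.5, 209 and 59.3 CPM, against 133, 170, 210 and 171 CPM, and passed as lower without the 5 dpw fl/fl pool (adjusted p = 0.000302 by edgeR). Mgst1, listed as a sebocyte marker, was at 66.2, 148, 127 and 83.6 CPM, against 157, 177, 277 and 228 CPM, with an adjusted p of 0.0533 by edgeR, and 0.0159 without the 3 dpw +/+ pool. Of 16 glycolysis genes 0 rose and 1 fell, beside 6.83% and 3.47% of all genes tested.

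Among 769 unwounded cells 12 had Flg at 100 CPM or more without passing the keratin limit. They held 1 to 3 Flg UMIs each, 9 of them a single UMI, in pools with medians between 7455 and 7606.5 UMIs. The part of free RNA in them was not tested. Among wounded cells 5 had Flg at 100 CPM or more below the keratin limit.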
